A study of Mus musculus with 4 samples.

Results

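Migratory dendritic cells, the mature dendritic cells that have switched on the chemokine receptor Ccr7 and the actin-bundling protein fascin (Fscn1), numbered 431 of the 35372 cells kept from 4 mouse single-cell libraries (1.22%). A cell was kept when it showed 500 or more genes and no more than 10% of its UMIs were mitochondrial. Among kept cells, members held 3 or more UMIs of Ccr7 and Fscn1 together, 5 or more of the MHC class II genes H2-Aa and H2-Ab1 together, and none of the T cell genes Cd3e, Cd3d and Cd3g or the B cell gene Cd79a. The measured RNA thus chose the cells, and what follows describes them. A UMI is a unique molecular identifier, so a UMI count is a count of captured RNA molecules. The members numbered 92 cells in the combination, 122 with 2DG, 130 with aPDL1 and 87 in ctrl.

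The 4 libraries belong to a study that combines interference with sugar chains and PD-L1 blockade in mouse ovarian cancer. Their labels name the lymph node as tissue. Some members also held stromal and epithelial RNA, given below, and the tissue label was not tested against the counts. The groups were 2DG_aPDL1 (2-deoxy-D-glucose, a glucose analogue, together with the treatment labelled aPDL1, called the combination here), 2DG alone, aPDL1 alone, and a control labelled ctrl. Strain, age, tumour model, dose and time are not given in the labels of the samples, and the series text speaks of young and aged mice without saying which library came from which. Each group was 1 library, and the number of animals behind a library is not given, so nothing measures the spread within a group. Every difference below lies between single libraries and could not be tested, and intervals cover counting error only.

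Dendritic cells take up antigen in a tissue, mature when they sense danger or cytokines, and then follow CCL19 and CCL21 through CCR7 along lymphatic vessels to the lymph node, where they show antigen on MHC molecules to T cells. Mature cells raise costimulatory molecules such as CD40, CD80 and CD86 together with inhibitory ones such as PD-L1 (Cd274), PD-L2 (Pdcd1lg2) and CD200, and a state with both sides has been described in tumours and their draining nodes in mice and humans. CCL17 and CCL22, which many of these cells secrete, attract T cells that carry CCR4, regulatory T cells among them.

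The name was set beside its 4 marker genes, of which Ccr7 and Fscn1 chose the members and are no check of it. In CPM, the usual count unit of a gene's UMIs scaled by the total UMIs of the members, with exact Poisson 95% intervals in brackets, Ccr7 was at 1831 CPM (1746 to 1919) in the combination, 1578 (1517 to 1641) with 2DG, 1943 (1869.8 to 2019) with aPDL1 and 1927 (1844 to 2012) in ctrl. Tbc1d4, a GTPase-activating protein of vesicle transport and a marker of this state that the rule did not use, was at 1758 CPM in the combination, 1748 with 2DG, 1989.6 with aPDL1 and 1606 in ctrl. It ranged from 183 to 252 CPM in type 1 conventional dendritic cells, 164 to 302 CPM in type 2 conventional dendritic cells and 17.5 to 41.0 CPM in C1q macrophages of the same libraries. The compared classes were picked by marker UMIs too, all with fewer than 3 UMIs of Ccr7 and Fscn1: type 1 cells by Xcr1 and Clec9a, type 2 cells by Cd209a and Flt3 without C1q, Xcr1, Clec9a or Siglech, and macrophages by 10 or more UMIs of C1qa, C1qb and C1qc. Ccl22 was at 551 CPM in the combination, 1174 with 2DG, 1118 with aPDL1 and 1258 in ctrl, against at most 89.6 CPM in any of those classes. Tbc1d4 and Ccl22, which the rule did not use, were thus higher in the members than in each compared class of every library, while the levels of Ccr7 and Fscn1 were set by the way the cells were chosen. Among 747 genes of the gene lists and named genes, 144 were above both other dendritic cell classes in all 4 libraries and 146 were below both.

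**Figure D1:**
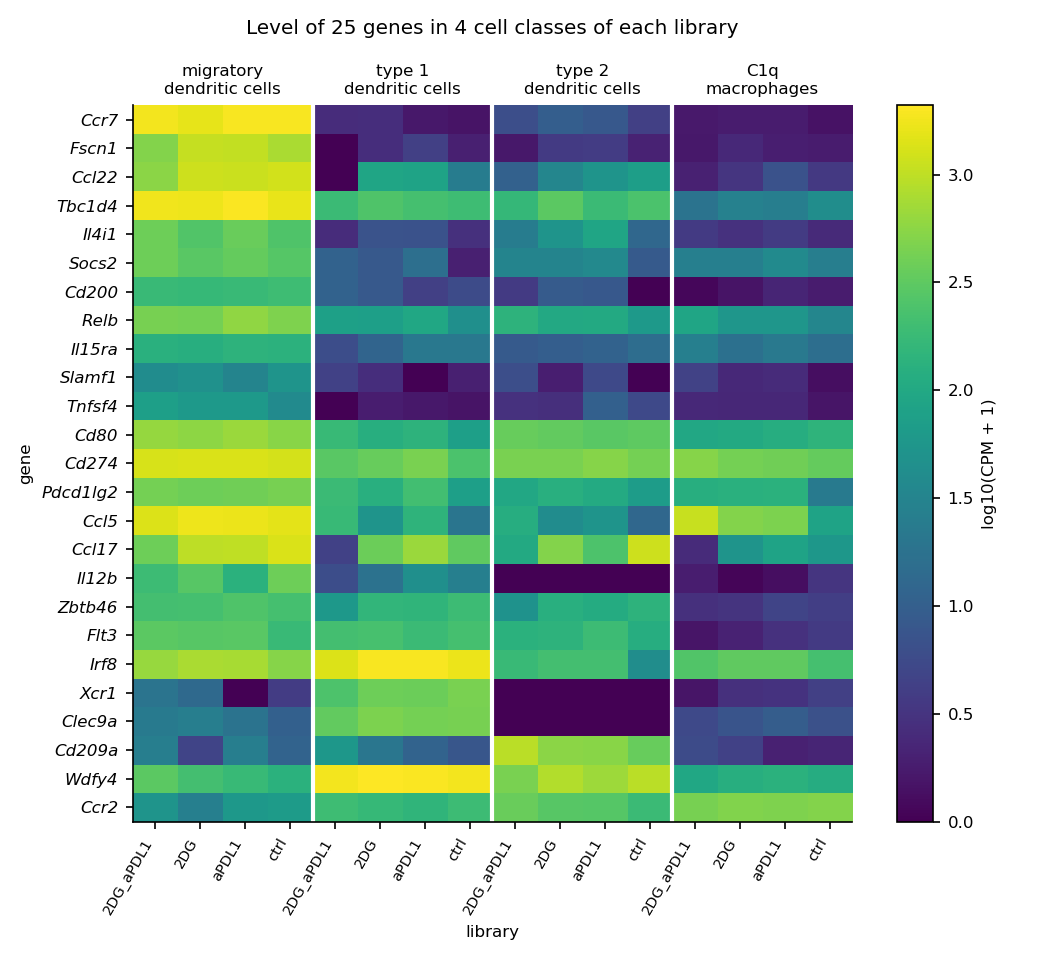
Level of 25 genes, as log10(CPM + 1) of summed UMIs, in migratory dendritic cells, type 1 and type 2 conventional dendritic cells and C1q macrophages (columns, grouped by class) of each library. Ccr7, Fscn1, Il4i1, Socs2, Cd200 and Tnfsf4 were highest in the block of migratory dendritic cells, and Xcr1 and Clec9a in that of type 1 dendritic cells. Ccr7 and Fscn1 helped to choose the migratory cells, and Xcr1 and Clec9a the type 1 cells.

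Genes of the dendritic cell lineage were present in the members. Zbtb46, a transcription factor of conventional dendritic cells, was at 210.1 to 257 CPM over the 4 libraries, against 1.89 to 3.84 CPM in C1q macrophages. Flt3, the receptor of the growth factor that dendritic cells need, was at 178 to 303 CPM against 0.55 to 2.63 CPM in the macrophages. Xcr1, Clec9a, Cd209a and Flt3 also picked the compared classes, so that their levels are given as a description. Xcr1, the receptor of the chemokine XCL1, was at 0 to 18.0 CPM against 247 to 447 CPM in type 1 cells. Clec9a, a lectin that binds dead cells, was at 9.48 to 25.2 CPM against 329 to 457 CPM in type 1 cells. Cd209a, a DC-SIGN homologue, was at 3.78 to 25.3 CPM against 357 to 943 CPM in type 2 cells. The transcription factor Irf8, which type 1 cells need, lay between the 2 subsets at 523 to 799 CPM, against 1418 to 1932 CPM in type 1 and 41.5 to 215 CPM in type 2 cells. Cd207, the langerin gene of Langerhans cells and some skin dendritic cells, had no UMI in any member.

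Some members also held RNA of other cell types. At least 3 UMIs of C1qa, C1qb and C1qc (macrophage genes) were found in 32 members, at least 5 of S100a8 and S100a9 (neutrophil genes) in 10, at least 5 of stromal or epithelial genes in 12 and at least 3 of B cell genes in 7. Any of these was found in 8 members in the combination, 14 with 2DG, 19 with aPDL1 and 17 in ctrl, 58 in all, called mixed members below. Summed over 10 neutrophil genes the members held 1127 CPM in the combination, 362 with 2DG, 586 with aPDL1 and 1631 in ctrl, and Il1r2, which type 2 dendritic cells express too, gave most of the value in the combination. That sum without the mixed members was 1148 CPM in the combination, 274 with 2DG, 389.5 with aPDL1 and 842 in ctrl. Over 12 macrophage genes the sum was 596 CPM in the combination, 446 with 2DG, 783 with aPDL1 and 1152 in ctrl, and without the mixed members 257 CPM in the combination, 163 with 2DG, 265 with aPDL1 and 283 in ctrl. Over 8 monocyte genes, each with UMIs in all 4 libraries, it was 864 CPM in the combination, 216 with 2DG, 779.8 with aPDL1 and 1035 in ctrl. It was lowest with 2DG, also without the mixed members, at 714 CPM in the combination, 109 with 2DG, 596 with aPDL1 and 618 in ctrl. Over 11 stromal genes it was 637 CPM in the combination, 68.1 with 2DG, 64.1 with aPDL1 and 24.7 in ctrl, and 1 of the 11 had no UMI in any member. Over 9 epithelial genes, 2 of them at 0 in all, it was 120.4 CPM in the combination, 444 with 2DG, 8.84 with aPDL1 and 4.74 in ctrl. Leaving out the mixed members, the stromal sum came to 41.8 CPM in the combination, 17.8 with 2DG, 28.0 with aPDL1 and 11.4 in ctrl. Of 17 T and NK cell genes 4 had no UMI in any member, and of 6 mast cell and basophil genes 5 had none.

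The edge of the rule can be read in the cells around it. The 63 members with 3 to 5 UMIs of Ccr7 and Fscn1 held 536 CPM of Tbc1d4, 349 of Ccl22 and 188 of C1qa, and the 368 with 6 or more held 1984, 1170 and 89.7 CPM. The 246 cells with 1 or 2 UMIs, outside the rule but within its other limits, held 298 CPM of Tbc1d4, 63.9 of Ccl22 and 870 of C1qa. Fscn1 had no UMI in 128 of the 431 members, and Ccr7 and Fscn1 were both detected in 286. Members near the edge made up 20.7 percent of members in the combination, 10.7 with 2DG, 12.3 with aPDL1 and 17.2 in ctrl.

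Depth was similar but not equal. Members had a median of 9206 UMIs in the combination, 10940 with 2DG, 9858 with aPDL1 and 12305 in ctrl and 2765 to 3155 genes, above the median of 6150 to 6656 UMIs of all kept cells. The UMIs of all members summed to 947063 in the combination, 1586719 with 2DG, 1358077 with aPDL1 and 1054682 in ctrl. A single 2DG member held 127390 UMIs, against at most 40211 in the other libraries. CPM of summed UMIs give such deep members more weight, and genes that deep or mixed members lack read lower. Ccr7, Ccl22 and Tbc1d4 with 2DG were higher than the values above once the mixed members were left out. The Poisson intervals do not cover this. Of all barcodes, 157 occurred in more than 1 library, among them that of 1 member.

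The share of migratory dendritic cells was lower in the combination than with either treatment alone. It was 0.99% (0.799 to 1.21) in the combination, 1.54% (1.28 to 1.83) with 2DG, 1.44% (1.20 to 1.70) with aPDL1 and 0.957% (0.767 to 1.18) in ctrl, as percent of kept cells with exact Clopper-Pearson 95% intervals for counting error. The intervals of the combination and ctrl did not overlap those of 2DG; that of the combination overlapped the interval of aPDL1 at 1.20 to 1.21%, and that of ctrl did not. Neutrophils were far more frequent in ctrl than in the other libraries. Of cells without neutrophils, the share was 1.01% (0.815 to 1.24) in the combination, 1.58% (1.31 to 1.88) with 2DG, 1.46% (1.22 to 1.74) with aPDL1 and 1.39% (1.11 to 1.72) in ctrl, so that ctrl lay beside the single treatments and the combination below them. The interval of the combination lay below that of 2DG and overlapped those of aPDL1 and ctrl. As a share of the 3 dendritic cell classes together the members made up 28.7% (23.8 to 33.9) in the combination, 32.4% (27.7 to 37.4) with 2DG, 34.2% (29.4 to 39.2) with aPDL1 and 33.6% (27.9 to 39.7) in ctrl, and these 4 intervals overlapped. The order of the other subsets differed: type 1 cells numbered 47 in the combination, 145 with 2DG, 102 with aPDL1 and 108 in ctrl, and type 2 cells 182, 109, 148 and 64 in the same libraries.

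**Figure D2:**
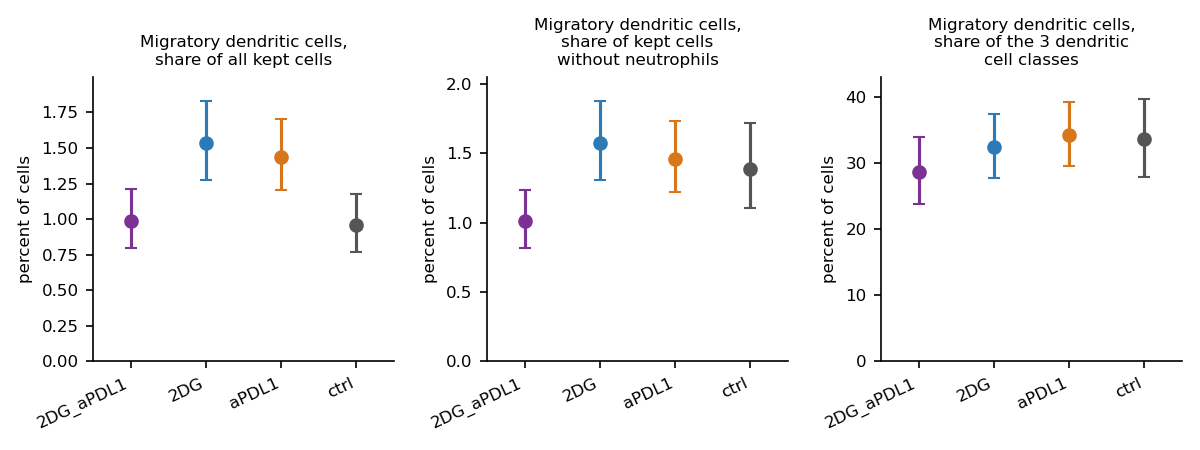
Migratory dendritic cells as percent of kept cells (left), of kept cells without neutrophils (middle) and of the 3 dendritic cell classes (right) in each library, with exact 95% binomial intervals. The combination had 0.990% of kept cells and 1.01% of cells without neutrophils, and ctrl had 0.957% and 1.39%.

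The checkpoint ligand genes Cd274, Pdcd1lg2 and Cd200 were close in all 4 libraries. Cd274, which encodes PD-L1, the target named in the aPDL1 label, was at 1299 CPM (1227 to 1373) in the combination, 1345 (1288 to 1403) with 2DG, 1341 (1280 to 1404) with aPDL1 and 1262 (1195 to 1332) in ctrl, above the 241 to 455 CPM of type 1 cells, the 424 to 529 CPM of type 2 cells and the 341 to 526 CPM of C1q macrophages. Pdcd1lg2, which encodes PD-L2, was at 419 CPM in the combination, 386 with 2DG, 395 with aPDL1 and 439.9 in ctrl. Cd200, an inhibitory ligand, was at 179.5 CPM in the combination, 166 with 2DG, 176 with aPDL1 and 193 in ctrl. None of these 3 genes differed by as much as 1.5-fold between any pair of libraries. For the 15 genes of the regulatory list with at least 20 UMIs over the 4 libraries, medians of the log2 ratio were -0.19 for 2DG over ctrl, 0.03 for the combination over aPDL1, -0.15 for aPDL1 against ctrl and 0.12 for the combination over 2DG (-0.14 without the mixed members). Past 1.5-fold, 1 of them was higher and 5 lower with 2DG than in ctrl, 2 higher and 4 lower in the combination than with aPDL1, 2 higher and 5 lower with aPDL1 than in ctrl, and 3 higher and 3 lower in the combination than with 2DG. Over all 10390 genes with as many UMIs the same medians were 0.12, -0.00, 0.07 and -0.07. As background for the counts below, the share of those genes with a ratio above 0 was 58.1% with 2DG over ctrl, 49.7% in the combination over aPDL1, 54.5% with aPDL1 over ctrl and 45.2% in the combination over 2DG. In the same order of pairs, 41.9, 50.3, 45.5 and 54.8% were below 0. Past 1.5-fold, the higher genes were 24.4% with 2DG over ctrl, 16.2% in the combination over aPDL1, 19.0% with aPDL1 over ctrl and 12.9% in the combination over 2DG, and the lower ones in the same order 14.2, 16.5, 14.6 and 21.3%.

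Costimulatory genes varied from gene to gene. Cd80, a ligand of CD28 and CTLA-4, was at 627 CPM in the combination, 568 with 2DG, 658 with aPDL1 and 543 in ctrl. Cd40, which receives help from T cells, was at 202 CPM in the combination, 178 with 2DG, 182 with aPDL1 and 173 in ctrl. Relb, the NF-kB subunit of mature dendritic cells, was highest with aPDL1, at 438 CPM in the combination, 421 with 2DG, 579 with aPDL1 and 478 in ctrl. Cd86, the other ligand of CD28 and CTLA-4, stood out in the combination, at 1337 CPM (1264 to 1412) in the combination, 822 (778 to 868) with 2DG, 869 (820 to 919.9) with aPDL1 and 917 (860 to 977) in ctrl. Cd83, a stabilizer of surface MHC class II, was highest in ctrl and lowest with 2DG, at 1002 CPM in the combination, 737 with 2DG, 896 with aPDL1 and 1348 in ctrl. Tnfsf4, the OX40 ligand, was lowest in ctrl, at 72.9 CPM in the combination, 60.5 with 2DG, 58.9 with aPDL1 and 37.9 in ctrl, and stayed at or below 9.41 CPM in every compared class. Of the 13 measured maturation genes, 11 were higher in the combination than with 2DG (median 0.18), and 1 passed 1.5-fold. With the mixed members left out, 6 were higher and 7 lower (median -0.003), and none passed 1.5-fold higher. Among 25 genes of a mature regulatory signature, Fabp5, a fatty acid binding protein, had the widest range in CPM, at 3932 CPM in the combination, 2716 with 2DG, 3048 with aPDL1 and 1625 in ctrl. It was lowest in ctrl. With each member weighted equally, the mean CPM of Fabp5 was 4652 in the combination, 3624 with 2DG, 3548 with aPDL1 and 1942 in ctrl. The level with 2DG was then above that with aPDL1. Mreg, a protein of melanosome transport, was lowest in the combination, at 559.6 CPM in the combination, 715 with 2DG, 727 with aPDL1 and 1005 in ctrl. The median of that signature was 0.12 for 2DG over ctrl, -0.14 for the combination over aPDL1, 0.25 for aPDL1 against ctrl and -0.11 for the combination over 2DG. Without the mixed members these medians were 0.22, -0.14, 0.17 and -0.33. In the last pair 20 of the 25 genes were then lower, against 14 with all members.

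Ccl17 and Ccl22 were lowest in the combination. Ccl17 was at 392 CPM (353 to 434) in the combination, 988 (939.9 to 1038) with 2DG, 993 (940.3 to 1047) with aPDL1 and 1338 (1269 to 1409.5) in ctrl. Ccl22 was at 551 CPM (505 to 601) in the combination, 1174 (1121 to 1229) with 2DG, 1118 (1062 to 1175) with aPDL1 and 1258 (1191 to 1328) in ctrl, so both were more than 1.5-fold below each of the other 3 libraries. Fscn1, a gene of the rule itself, was also lowest there, at 510 CPM (466 to 558) in the combination, 1057 (1007 to 1109) with 2DG, 1035 (981 to 1090.1) with aPDL1 and 787 (734 to 842) in ctrl. Cells were also thinned to 3000 UMIs each, which left out 2 shallower members in the combination, 3 with 2DG, 5 with aPDL1 and 10 in ctrl. Ccl17 was then detected in 26.7% (17.9 to 37.0) in the combination, 47.9% (38.7 to 57.2) with 2DG, 45.6% (36.7 to 54.7) with aPDL1 and 64.9% (53.2 to 75.5) in ctrl. Ccl22 was detected in 50% (39.3 to 60.7) in the combination, 73.1% (64.2 to 80.8) with 2DG, 63.2% (54.1 to 71.6) with aPDL1 and 67.5% (55.9 to 77.8) in ctrl. For Ccl17 the interval of the combination met that of aPDL1 at its edge and lay below those of 2DG and ctrl. For Ccl22 it lay below that of 2DG and overlapped those of aPDL1 and ctrl. Without thinning the shares for Ccl17 were 37.0% in the combination, 56.6% with 2DG, 55.4% with aPDL1 and 75.9% in ctrl. For Ccl22 they were 64.1% in the combination, 84.4% with 2DG, 80% with aPDL1 and 80.5% in ctrl. Neutrophils, which should lack both, had Ccl17 in 0% to 0.962% and Ccl22 in 0% to 0.544% of cells at median depths of 4330 to 5632 UMIs. Ccl17 was also lowest in the combination in each of the 3 compared classes, at 102 CPM in the combination, 501 with 2DG, 247 with aPDL1 and 1159.9 in ctrl in type 2 cells.

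Ccl5, which attracts T cells and NK cells, showed no such gap, at 1378 CPM in the combination, 1715 with 2DG, 1689.9 with aPDL1 and 1529 in ctrl. Cxcl16, the ligand of CXCR6 on effector T cells, was at 561 CPM in the combination, 467 with 2DG, 555 with aPDL1 and 468 in ctrl. Ccl19 had no UMI in any member. The CXCR3 ligand Cxcl9 was lowest in ctrl, at 443 CPM in the combination, 337 with 2DG, 577 with aPDL1 and 239.9 in ctrl. Cxcl10, another ligand of CXCR3, was at 227 CPM in the combination, 65.5 with 2DG, 141 with aPDL1 and 55.9 in ctrl, with ctrl and 2DG low. Of 12 measured chemokine genes, 6 were higher and 6 lower in the combination than with aPDL1 (median -0.14), and 7 were higher and 5 lower than with 2DG (median 0.33, and -0.05 without the mixed members). Cxcl9 was detected in 38.9% (28.8 to 49.7) in the combination, 26.1% (18.4 to 34.9) with 2DG, 34.4% (26.1 to 43.4) with aPDL1 and 11.7% (5.49 to 21.0) in ctrl of thinned members, and in 6.33% in the combination, 7.91% with 2DG, 13.8% with aPDL1 and 2.64% in ctrl of neutrophils. C1q macrophages held 429.6 to 1490 CPM of Cxcl9 and 139.7 to 544 CPM of Cxcl10.

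A size rule asked which genes lay at least 1.5-fold above or below all other 3 libraries in the combination, with at least 50 UMIs in the highest library. It found 145 higher genes of 5086 (2.85%) and 192 lower genes (3.78%). Of these, 19 higher and 37 lower genes also passed in each of the 14 alternatives run. Ranked by size, the 10 highest were Tenm3, Meg3, Wt1, Slit3, Rian, Sntg1, Col1a2, Col1a1, Tmeff2 and Kalrn, among them 2 collagen genes of stroma and Wt1, a mesothelial transcription factor. Each had its UMIs in 1 or 2 combination members, with a single member holding 50.9% to 100% of them, and none passed without the mixed members. Stromal, S100a8 and S100a9 UMIs were among those that defined the mixed members. The loss of such genes without these members, here and among the lowest, is therefore no check. The 10 lowest by size were Nlgn1, S100a9, Nexmif, Spock1, S100a8, Fgf13, Baiap2l1, Mecom, Yes1 and Axl, of which Nexmif, Spock1 and Yes1 passed without the mixed members. In ctrl a single member held all 50 UMIs of Nexmif.

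The 19 higher genes that passed throughout included Ifitm1, Plac8, Gpr183, Cyp7b1 and Il1b. Ifitm1, an interferon-induced membrane protein, was at 1724 CPM (1642 to 1810) in the combination, 690.1 (649.8 to 732) with 2DG, 593 (553 to 636) with aPDL1 and 498 (456 to 542) in ctrl. Plac8, a small cysteine-rich protein of immune cells and 1 of the 8 monocyte genes above, was at 402 CPM in the combination, 73.1 with 2DG, 169 with aPDL1 and 134 in ctrl. Gpr183, the receptor (EBI2) that guides dendritic cells and B cells along oxysterol gradients, was at 631 CPM in the combination, 210.5 with 2DG, 319.6 with aPDL1 and 333 in ctrl. Cyp7b1, the oxysterol hydroxylase that makes the ligand of that receptor, was at 579.7 CPM (532 to 630.3) in the combination, 97.1 (82.3 to 114) with 2DG, 193 (170.3 to 218) with aPDL1 and 60.7 (46.7 to 77.5) in ctrl, detected in 32 members in the combination, 13 with 2DG, 25 with aPDL1 and 8 in ctrl. Il1b, the cytokine interleukin 1 beta, was at 1116 CPM in the combination, 468 with 2DG, 577 with aPDL1 and 613 in ctrl. The 3 compared classes also had their highest Il1b in the combination, with 1414 CPM in the combination, 499 with 2DG, 675 with aPDL1 and 786 in ctrl in type 2 cells. Sema4d, a semaphorin of immune cells, was at 199 CPM in the combination, 59.9 with 2DG, 77.3 with aPDL1 and 83.4 in ctrl. Dusp2, a phosphatase that acts on MAP kinases, was at 164 CPM in the combination, 40.3 with 2DG, 47.9 with aPDL1 and 43.6 in ctrl. The rest of the 19 were Prkg1, Ccdc138, Gch1, Bbs9, Ccdc167, Eprs, Calcrl, Rhoq, Hat1, Cxcl10, St3gal1 and Junb. Il1r2, the decoy receptor for interleukin 1, was at 1111 CPM in the combination, 289.9 with 2DG, 407 with aPDL1 and 744 in ctrl, which missed the size rule against ctrl by a small margin.

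The 37 lower genes that passed throughout held Ccl17 and Ccl22 and the following. Aldh1a2, the enzyme that makes retinoic acid, was at 19.0 CPM (11.3 to 30.0) in the combination, 111 (95.1 to 129) with 2DG, 40.5 (30.5 to 52.7) with aPDL1 and 129 (108 to 153) in ctrl. Pde4d, a phosphodiesterase that breaks down cyclic AMP, was at 632 CPM (583 to 685) in the combination, 1623 (1561 to 1687) with 2DG, 1569.9 (1504 to 1638) with aPDL1 and 1484 (1411 to 1559) in ctrl, while type 1 cells held 136 to 289 CPM, with their highest level in the combination. Tnfrsf11a, the receptor RANK, was at 97.1 CPM in the combination, 205 with 2DG, 216 with aPDL1 and 259 in ctrl. Scin, the actin-severing protein scinderin, was at 39.1 CPM in the combination, 178 with 2DG, 84.7 with aPDL1 and 183 in ctrl. Actn1, an actin cross-linker, was at 234 CPM in the combination, 487 with 2DG, 413 with aPDL1 and 421 in ctrl. Adam19, a membrane metalloprotease, was at 79.2 CPM in the combination, 154 with 2DG, 168 with aPDL1 and 159 in ctrl. St6gal1, the sialyltransferase that caps N-glycans, was at 19.0 CPM in the combination, 52.9 with 2DG, 78.8 with aPDL1 and 121 in ctrl. Slc33a1, a transporter of acetyl-CoA into the endoplasmic reticulum, was at 33.8 CPM in the combination, 118 with 2DG, 122 with aPDL1 and 118 in ctrl.

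**Figure D3:**
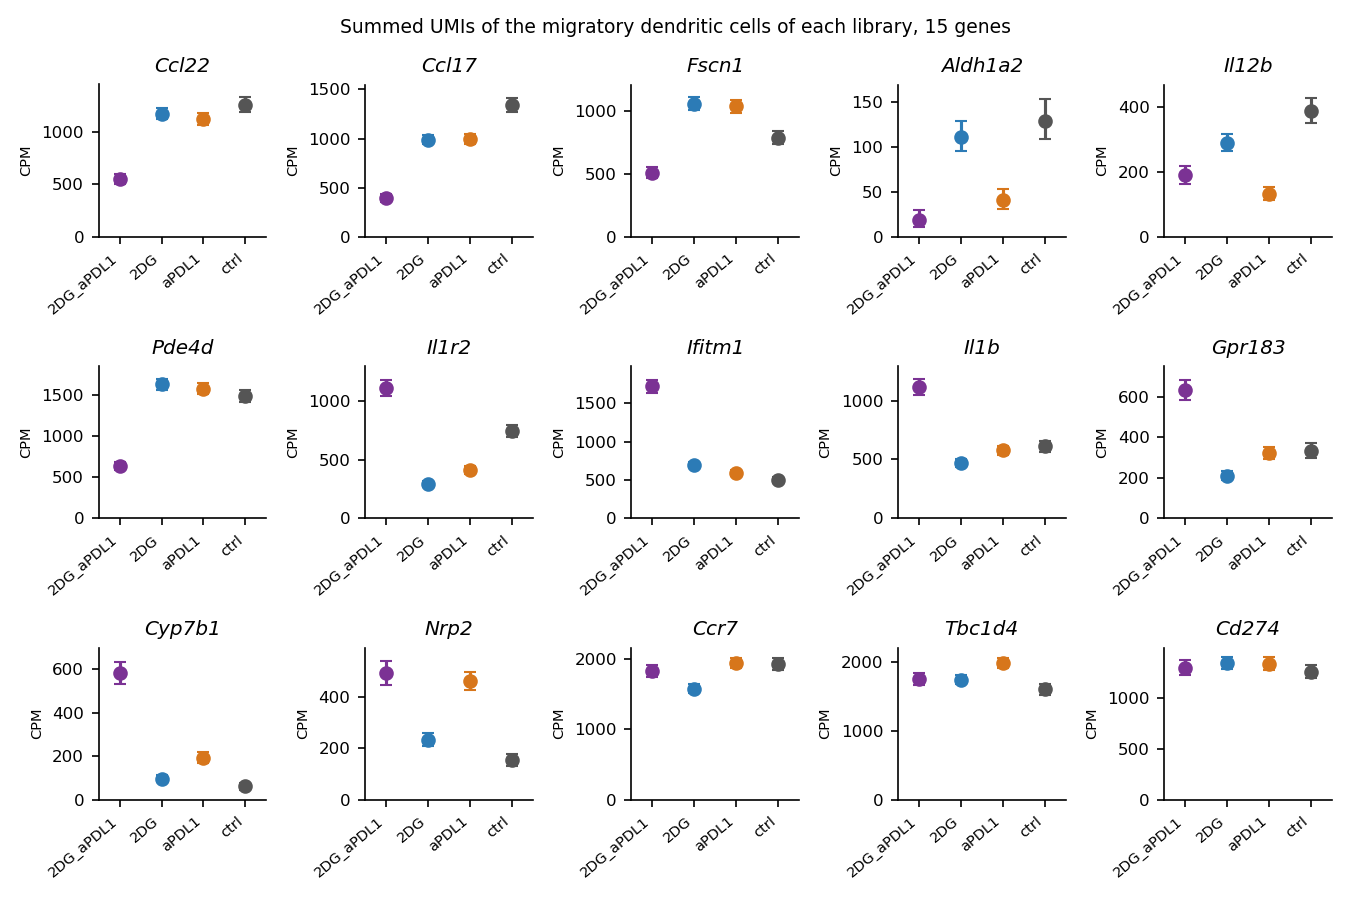
CPM of 15 genes in the migratory dendritic cells of each library, with exact Poisson 95% intervals of the summed UMIs. Ccl22, Ccl17, Fscn1 and Pde4d were lowest in the combination and Il1r2, Ifitm1, Il1b, Gpr183 and Cyp7b1 highest, while Ccr7, Tbc1d4 and Cd274 were close in all 4. Ccr7 and Fscn1 were part of the rule that chose the cells.

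Part of what marked the combination was shared by other cells of that library. Gm42418, a predicted gene, made up 1.32 percent of member UMIs in the combination, 3.43 with 2DG, 3.23 with aPDL1 and 3.51 in ctrl, and in all kept cells it was at 24186 CPM in the combination, 56329 with 2DG, 43555 with aPDL1 and 38827 in ctrl. Lars2, Cdk8, Camk1d and Gm15564, which passed as lower, were also lowest in the combination in type 1 cells, type 2 cells and C1q macrophages. The stress-inducible Hsp70 genes Hspa1a and Hspa1b, near-identical copies whose reads can be hard to split, were lowest in the combination and highest in ctrl. Hspa1a was at 40.1 CPM in the combination, 133 with 2DG, 124 with aPDL1 and 387 in ctrl in members and at 58.1 CPM in the combination, 194 with 2DG, 169 with aPDL1 and 404 in ctrl over all kept cells. Hspa1b was at 44.3 CPM in the combination, 179 with 2DG, 121 with aPDL1 and 444 in ctrl in members. Junb, an immediate early transcription factor gene, was at 1094 CPM in the combination, 563 with 2DG, 599 with aPDL1 and 695 in ctrl in members, and at 1753 CPM in the combination, 999 with 2DG, 867 with aPDL1 and 915 in ctrl in C1q macrophages. The part of these library-wide differences in the results on members was not tested.

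For 2DG there were 2 pairs of libraries, without aPDL1 (2DG against ctrl) and with it (the combination against aPDL1). A call needed a 1.5-fold difference of the same sign in each pair, and 50 UMIs or more in whichever library was higher. That left 57 genes as higher (1.38% of 4144) and 51 as lower (1.23%). In each of the 14 alternatives 4 of the higher and 4 of the lower genes passed. The higher ones were Ccdc138, Selenom, Ccdc167 and Zc3hav1. Zc3hav1, the antiviral RNA-binding protein ZAP, was at 550.1 CPM (504 to 599) in the combination, 349.8 (321 to 380.1) with 2DG, 307 (278 to 338) with aPDL1 and 202 (176 to 231) in ctrl, and Selenom, a selenoprotein of the endoplasmic reticulum, at 181 CPM in the combination, 101 with 2DG, 75.1 with aPDL1 and 37.0 in ctrl. Ccdc138, a coiled-coil protein, was at 173 CPM in the combination, 50.4 with 2DG, 39.0 with aPDL1 and 3.79 in ctrl, with 4 UMIs in ctrl. The lower ones were Hspa1a, Hspa1b, St6gal1 and Stk39, a kinase of the stress and ion transport pathways, at 71.8 CPM in the combination, 107 with 2DG, 139 with aPDL1 and 221 in ctrl.

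Many of the other genes that size put first for 2DG were genes of other cell types. Bgn, Bnc2, Dcn, Cald1, Serpinh1, Col8a1, Sparc, Mgp and Pdpn, genes of extracellular matrix and stromal cells, filled 9 of the 10 highest ranks. None of the 9 passed without the mixed members. Stromal UMIs were among those that defined the mixed members, so this loss was largely set by that choice and is no check. Sparc, a matrix glycoprotein, was at 186 CPM in the combination, 87.6 with 2DG, 23.6 with aPDL1 and 0.948 in ctrl, with UMIs in 2 members in the combination, 3 with 2DG, 2 with aPDL1 and 1 in ctrl. On the lower side, S100a9, a calcium-binding protein of neutrophils, was at 2.11 CPM in the combination, 19.5 with 2DG, 67.0 with aPDL1 and 375 in ctrl. C1qa was at 40.1 CPM in the combination, 60.5 with 2DG, 149 with aPDL1 and 164 in ctrl. S100a8, S100a9, C1qa, Acp5, Plxdc2, Acod1 and Slc7a2 held no call without the mixed members. UMIs of S100a8, S100a9 and C1qa helped to define the mixed members, so their loss was largely set by that choice. S100a9 had UMIs in 2 members in the combination, 7 with 2DG, 4 with aPDL1 and 31 in ctrl, and cells with 20 or more UMIs of S100a8 and S100a9, 3000 or more UMIs in all and no Cd3 UMI numbered 79 in the combination, 139 with 2DG, 94 with aPDL1 and 2390 in ctrl.

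For aPDL1 the pairs were aPDL1 against ctrl, and the combination against 2DG. They were drawn from the same 4 libraries, so these calls and those of 2DG are not independent. The same size rule found 57 genes as higher (1.37% of 4161) and 63 as lower (1.51%), and 7 higher and 14 lower genes passed in each alternative. Nrp2, a neuropilin that mature dendritic cells carry and that, polysialylated, takes part in their migration, was at 491 CPM (447 to 538) in the combination, 233 (210 to 258) with 2DG, 460.2 (425 to 498) with aPDL1 and 153 (130 to 178) in ctrl, with log2 ratios of 1.59 and 1.07. Atp2b4, a calcium pump of the plasma membrane, was at 118 CPM in the combination, 42.9 with 2DG, 87.6 with aPDL1 and 29.4 in ctrl, with log2 ratios of 1.56 and 1.46. Klf12, a transcription factor, was at 90.8 CPM in the combination, 37.2 with 2DG, 121 with aPDL1 and 24.7 in ctrl. Prnp, the prion protein gene, was at 101 CPM in the combination, 49.8 with 2DG, 95.7 with aPDL1 and 27.5 in ctrl. Rin2, a Rab5 exchange factor, was at 129 CPM in the combination, 54.8 with 2DG, 109 with aPDL1 and 55.0 in ctrl. In each of these 5 genes the combination and aPDL1 were above 2DG and ctrl, and Ccdc167 and Dscaml1 made up the rest of the 7.

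Aldh1a2, Scin, Mtss1, Lima1 and Rbpj were among the 14 genes lower with aPDL1. Aldh1a2 had log2 ratios of -1.66 and -2.51, and -1.68 and -2.80 without the mixed members. Scin had -1.11 and -2.17. Mtss1, a membrane-bending and actin-binding protein, was at 60.2 CPM in the combination, 135 with 2DG, 92.0 with aPDL1 and 342 in ctrl. Lima1, an actin-bundling LIM protein, was at 144 CPM in the combination, 293 with 2DG, 156 with aPDL1 and 336 in ctrl. Rbpj, the transcription factor of Notch signalling, was at 228 CPM (199 to 261) in the combination, 398 (368 to 431) with 2DG, 395 (363 to 430.3) with aPDL1 and 656 (608 to 707) in ctrl, with log2 ratios of -0.73 and -0.80. Hspa1a, Hspa1b, Arl15, Ppfibp2, Ddhd1, Krit1, Slc6a6, 2510009E07Rik and Rsrp1 made up the rest of the 14. Of the 10 highest by size, Plxna4, Timp3, Scimp, Grap2 and Ccdc138 held no call without the mixed members, and Cyp7b1, Atp2b4, Spon1, Cxcl10 and Klf12 held theirs. Of the 10 lowest, Glis3, Hspa1b, Aldh1a2 and Hspa1a passed without the mixed members, and Sgms2, Arhgap6, Nos2, Spp1, Slc7a2 and Ecm1 did not. Glis3, a zinc finger transcription factor, was at 28.5 CPM in the combination, 206 with 2DG, 28.0 with aPDL1 and 127 in ctrl. Spp1, osteopontin, had 57.3% of its 2DG UMIs in a single cell.

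Either treatment alone went with more RNA of interferon gamma response genes than ctrl. The median log2 ratio of 23 measured genes was 0.76 for 2DG over ctrl and 1.04 for aPDL1 over ctrl, with 22 and 22 of them higher, where 58.1% and 54.5% of all genes were higher. It was 0.04 for the combination over aPDL1 and 0.06 for the combination over 2DG, with 12 and 13 of the genes higher. Without the mixed members the medians over ctrl were 0.76 with 2DG and 0.90 with aPDL1. The ratios over ctrl share that library. Over the list ctrl was thus the low library. The guanylate-binding protein gene Gbp2 was at 308 CPM (274 to 346) in the combination, 403 (372 to 435) with 2DG, 454 (419 to 492) with aPDL1 and 177 (153 to 205) in ctrl. Irgm1, an immunity-related GTPase, was at 54.9 CPM in the combination, 24.6 with 2DG, 25.8 with aPDL1 and 14.2 in ctrl. C1q macrophages had medians of 1.12 and 1.12 over ctrl, type 2 cells 1.43 and 1.59, and type 1 cells 0.22 and 0.90.

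Type I interferon response genes were highest in the combination. Of 31 measured genes 29 were higher in the combination than with aPDL1 and 27 higher than with 2DG (medians 0.66 and 0.79). Without the mixed members these medians were 0.73 and 0.58. Of all genes, 49.7% and 45.2% were higher in these pairs. The medians over ctrl were 0.30 with 2DG and 0.21 with aPDL1. Isg15, a ubiquitin-like interferon-induced protein, was at 372 CPM (334 to 413) in the combination, 187 (166 to 209.7) with 2DG, 113 (96.2 to 133) with aPDL1 and 156 (133 to 182) in ctrl. Ifit2, which blocks translation of foreign RNA, was at 64.4 CPM in the combination, 15.1 with 2DG, 19.9 with aPDL1 and 17.1 in ctrl. Rsad2, the antiviral enzyme viperin, was at 99.3 CPM in the combination, 22.7 with 2DG, 27.2 with aPDL1 and 61.6 in ctrl. Ifih1, which encodes the RNA sensor MDA5, was as high with 2DG as in the combination, at 112 CPM in the combination, 112 with 2DG, 72.2 with aPDL1 and 71.1 in ctrl. In C1q macrophages the medians for the combination were 0.36 over aPDL1 and 0.32 over 2DG.

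Genes of MHC class II presentation were also highest in the combination. Of 16 MHC class II pathway genes, 14 were higher in the combination than with aPDL1 and 14 higher than with 2DG (medians 0.29 and 0.49). The shifts over aPDL1 were small, with 0 of the 16 past 1.5-fold, where 16.2% of all genes were higher by that much. Over 2DG, 5 were higher and 1 lower past 1.5-fold, where 12.9% of all genes were higher. H2-Aa and H2-Ab1 were part of the rule that chose the cells. H2-Eb1, another class II chain, was at 4654 CPM in the combination, 3100.1 with 2DG, 3273 with aPDL1 and 2875 in ctrl. Cd74, the invariant chain, was at 9854 CPM in the combination, 7156 with 2DG, 8059 with aPDL1 and 6225 in ctrl. Ciita, the transactivator of class II genes, was at 348 CPM (312 to 388) in the combination, 212 (190.3 to 236) with 2DG, 258 (231 to 286) with aPDL1 and 125 (105 to 148) in ctrl. With all members these 3 genes had the same order, with the combination highest, then aPDL1, 2DG and ctrl. Without the mixed members H2-Eb1 was no longer higher with aPDL1 than with 2DG. Lgmn, a lysosomal protease, was highest in ctrl, at 149.9 CPM in the combination, 160.1 with 2DG, 106 with aPDL1 and 244 in ctrl. In type 1 cells the same medians were -0.27 and -0.04, and in type 2 cells -0.12 and -0.11. For 23 MHC class I genes the medians lay between 0.11 and 0.26, with H2-K1, a class I heavy chain, at 1676 CPM in the combination, 1754 with 2DG, 1647 with aPDL1 and 1143 in ctrl.

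**Figure D4:**
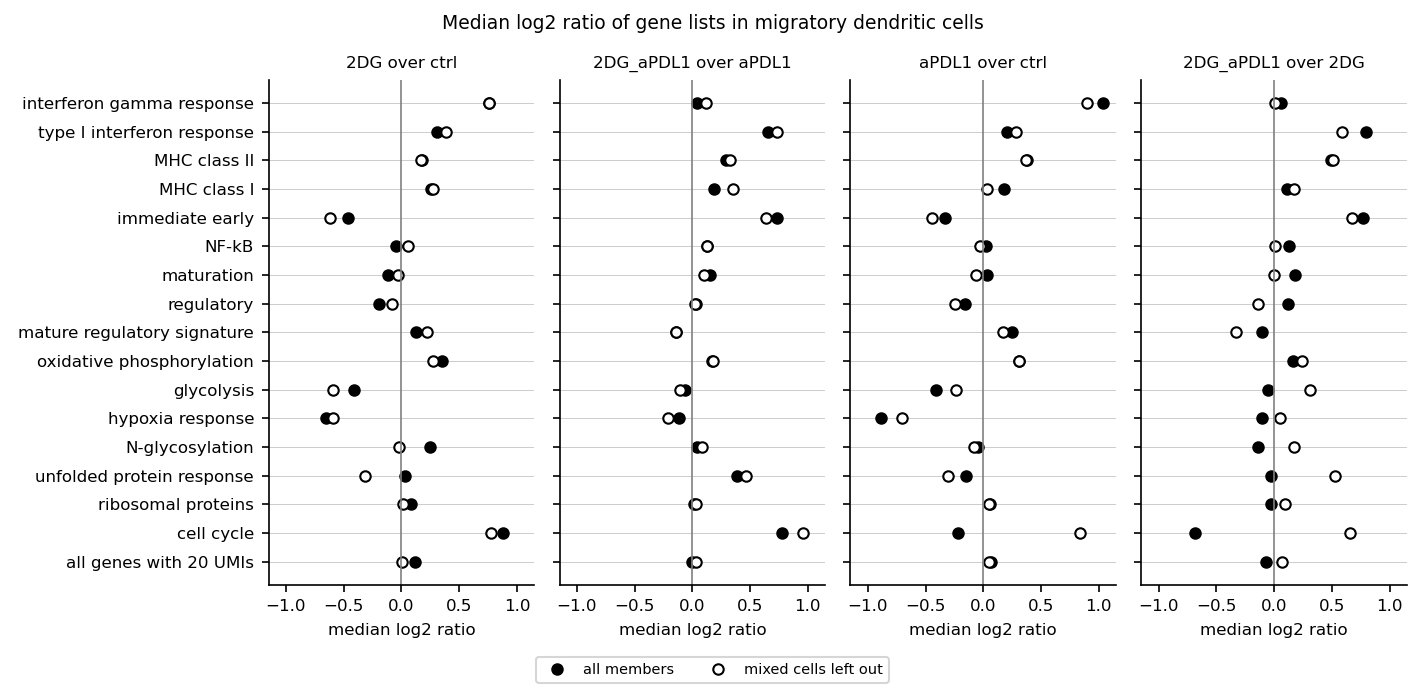
Median log2 ratio of gene lists in migratory dendritic cells for the 4 pairs of libraries, over genes with at least 20 UMIs, with all members (filled) and with the 58 mixed members left out (open). The interferon gamma response list had 0.76 and 1.04 over ctrl, the immediate early list 0.73 and 0.77 in the combination, and the cell cycle list changed sign in both aPDL1 pairs when the mixed members were left out.

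Glycolysis and hypoxia response genes were lower with each treatment alone than in ctrl. With 2DG, which competes with glucose at hexokinase, 17 of 22 measured glycolysis genes were lower than in ctrl (median -0.41), and with aPDL1 also 17 (median -0.41), where 41.9% and 45.5% of all genes were lower. The combination had medians of -0.06 over aPDL1 and -0.05 over 2DG, and the last came to 0.31 without the mixed members. The glucose transporter gene Slc2a1 (GLUT1) had 66.5 CPM (51.1 to 85.1) in the combination, 57.4 (46.2 to 70.4) with 2DG, 51.5 (40.2 to 65.1) with aPDL1 and 164 (140.5 to 190.4) in ctrl. Ldha, a lactate dehydrogenase subunit, was at 214 CPM in the combination, 214 with 2DG, 225 with aPDL1 and 326 in ctrl. Of 15 hypoxia response genes, 14 were lower with aPDL1 than in ctrl and 11 lower with 2DG, at medians of -0.88 and -0.65. Ero1l, an oxidase of the endoplasmic reticulum, was at 77.1 CPM (60.4 to 96.9) in the combination, 20.2 (13.8 to 28.5) with 2DG, 29.5 (21.0 to 40.1) with aPDL1 and 295 (263 to 329.5) in ctrl. Bnip3, a mitophagy receptor, was at 34.8 CPM in the combination, 20.8 with 2DG, 28.7 with aPDL1 and 109 in ctrl. Egln3, a prolyl hydroxylase that targets HIF, was at 20.1 CPM in the combination, 32.8 with 2DG, 24.3 with aPDL1 and 122 in ctrl. In these 3 genes each treated library was below ctrl. Without the mixed members the hypoxia medians were -0.70 for aPDL1 and -0.59 for 2DG over ctrl, and those of glycolysis -0.23 and -0.59. Genes of uptake receptors, which immature cells and macrophages express, were also lower with each treatment alone, at medians of -1.01 with 2DG and -0.79 with aPDL1 over ctrl (-1.08 and -0.34 without the mixed members). The macrophage, neutrophil and monocyte sums given above were highest in ctrl as well. The macrophage sum stayed highest in ctrl without the mixed members, while the neutrophil and monocyte sums were then highest in the combination. The part of these genes in the medians was not tested.

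Nuclear oxidative phosphorylation genes went the other way by small amounts. Of 31 such genes 28 were higher with 2DG than in ctrl and 27 with aPDL1, at medians of 0.35 and 0.31, and the combination had 0.17 over aPDL1 and 0.16 over 2DG. Cox8a, a subunit of cytochrome c oxidase, was at 571 CPM in the combination, 543 with 2DG, 538 with aPDL1 and 399 in ctrl. Type 2 cells had 0.31 and 0.24 over ctrl, and macrophages 0.17 and 0.25. N-glycosylation genes, which make and attach the glycans that 2DG can disturb, had medians of 0.25 for 2DG over ctrl (-0.02 without the mixed members) and 0.04 for the combination over aPDL1. Man1a, a Golgi mannosidase, had the widest range in CPM among them, at 529 CPM in the combination, 196 with 2DG, 393 with aPDL1 and 395 in ctrl. Unfolded protein response genes had 0.03 and 0.39 in the same pairs, and -0.32 and 0.47 without the mixed members.

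Immediate early genes, which turn on within minutes of a stimulus or of tissue handling, were higher in the combination than with either treatment alone. All 22 were higher there than with 2DG (median 0.77) and 19 than with aPDL1 (median 0.73), while 20 and 18 were lower with 2DG and with aPDL1 than in ctrl. Fos, a subunit of AP-1, was at 713 CPM in the combination, 249.6 with 2DG, 264 with aPDL1 and 433 in ctrl. Zfp36, which destabilizes cytokine messages, was at 761 CPM in the combination, 306 with 2DG, 263 with aPDL1 and 585 in ctrl. C1q macrophages of the combination had medians of 0.85 over aPDL1 and 0.80 over 2DG for the same list, and type 1 cells 1.14 and 0.88. Type 2 cells had 0.20 over aPDL1, with 13 of 22 genes higher, and 0.64 over 2DG, with 19 higher. NF-kB genes had medians from -0.05 to 0.13 over the 4 pairs, and ribosomal protein genes from -0.03 to 0.08. Cell cycle genes were at low counts, with Top2a at 50.7 CPM in the combination, 153 with 2DG, 29.5 with aPDL1 and 34.1 in ctrl. Of 25 measured, 21 were higher with 2DG than in ctrl and 21 higher in the combination than with aPDL1, at medians of 0.88 and 0.78, and of 0.78 and 0.96 without the mixed members. The medians were -0.21 for aPDL1 against ctrl and -0.68 for the combination against 2DG, and 0.84 and 0.65 without the mixed members.

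Among cytokine genes, Il12b was detected in a minority of the members. Il12b, the p40 chain of interleukins 12 and 23, was at 189 CPM (162 to 219) in the combination, 289 (263 to 317) with 2DG, 131 (113 to 152) with aPDL1 and 388 (351 to 427) in ctrl, and was detected in 4.44% (1.22 to 11.0) in the combination, 15.1% (9.22 to 22.8) with 2DG, 9.60% (5.06 to 16.2) with aPDL1 and 27.3% (17.7 to 38.6) in ctrl of members thinned to 3000 UMIs. Without thinning it was detected in 8.70% in the combination, 22.1% with 2DG, 14.6% with aPDL1 and 26.4% in ctrl. Neutrophils had it in 0% to 0.251% of cells. Ctrl was highest in level and share, aPDL1 lowest in level and the combination in share. Il12a, the other chain of interleukin 12, had no UMI in any member. Il15, a growth factor of memory T and NK cells, was lowest in the combination, at 85.5 CPM in the combination, 106 with 2DG, 127 with aPDL1 and 159 in ctrl. Its receptor chain Il15ra, which presents it in trans, was at 127 CPM in the combination, 119 with 2DG, 139.9 with aPDL1 and 137 in ctrl. Il4i1, a secreted amino acid oxidase that dampens T cells, was at 391 CPM in the combination, 262 with 2DG, 364 with aPDL1 and 256 in ctrl. Il10 was near 0, at 5.28 CPM in the combination, 1.89 with 2DG, 1.47 with aPDL1 and 0.948 in ctrl.

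The members were not uniform, and some contrasts between cells had the same direction in each library. The genes that split the cells were chosen after their values were seen, the contrasts leave out the mixed members, and none was tested. Genes named as higher or lower in all 4 libraries, in this and the other splits, were picked because they were, so their recurrence is no check. At least 3 UMIs of Il1r2 were held by 43 of 84 cells (51.2%) in the combination, 25 of 108 cells (23.1%) with 2DG, 28 of 111 cells (25.2%) with aPDL1 and 33 of 70 cells (47.1%) in ctrl. These cells, set against the rest of the members of their library, had less Fscn1, at 253 against 923 CPM in the combination, 604 against 1612 with 2DG, 344 against 1414 with aPDL1 and 606 against 1205 in ctrl. Fscn1 is a gene of the rule, so the choice of cells shaped its level among members, and it is given as a description. They had less Ccl5 too, at 542 against 2550.1 CPM in the combination, 1935 against 2307 with 2DG, 957 against 1851 with aPDL1 and 979 against 2316 in ctrl. Socs2, a brake on cytokine signalling, Il4i1, Stat4, Epsti1 and Irf8 were likewise lower in them in all 4 libraries. Ifitm1 was higher in them, at 2977 against 302 CPM in the combination, 1529.6 against 456 with 2DG, 1736 against 298 with aPDL1 and 868 against 205 in ctrl. Cd86 was higher as well, at 1625 against 912 CPM in the combination, 1472 against 822 with 2DG, 1389 against 726 with aPDL1 and 1491 against 634 in ctrl. Il1b, the lectin genes Clec4n and Mgl2, Creb5 and H2-Eb1 were also higher in all 4. Other genes changed direction between libraries. Tbc1d4 in the cells with Il1r2 was higher with 2DG (2466 against 2154 CPM) and lower in ctrl (1690 against 2097 CPM). Cd274 was higher in them in the combination (1491 against 1365 CPM) and lower in ctrl (1155 against 1685 CPM). Median depth was 8708 to 12265 UMIs in these cells and 9131 to 11374 in the rest. Within the combination alone, Fscn1 and Ccl22 were the lowest of the 4 libraries in both kinds of cell.

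**Figure D5:**
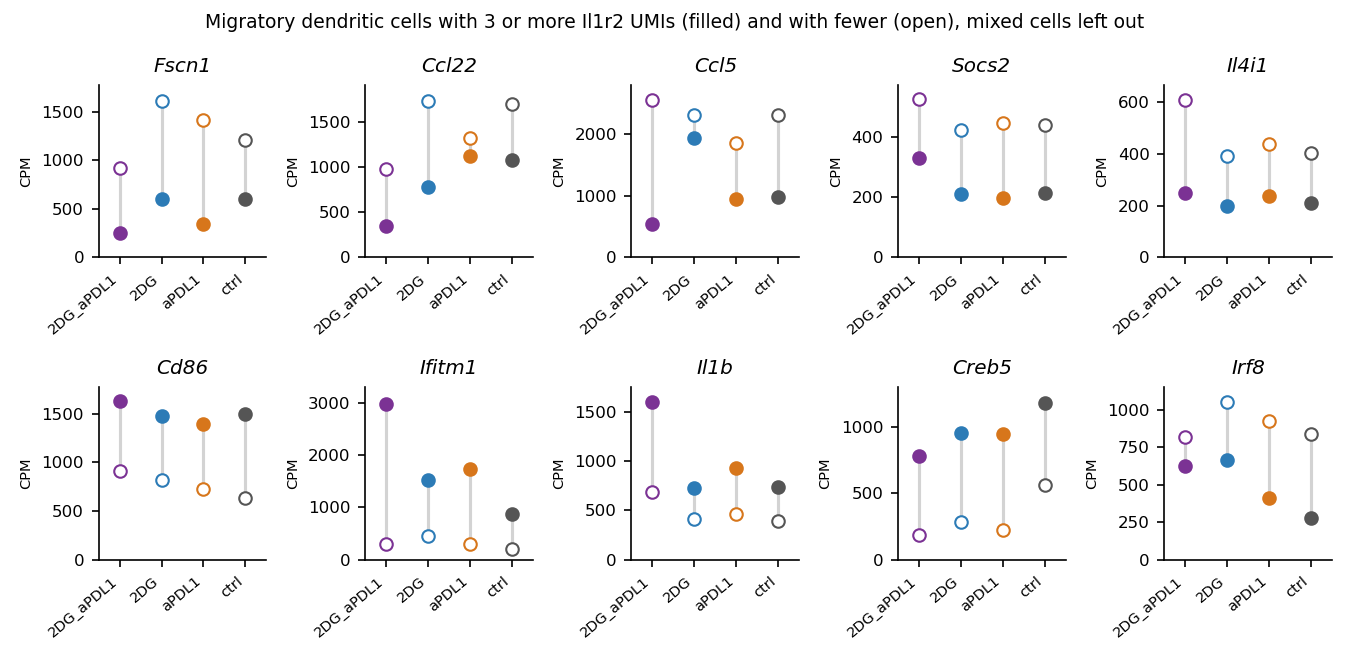
CPM of 10 genes in migratory dendritic cells with 3 or more Il1r2 UMIs (filled) and with fewer (open) in each library, mixed members left out. Fscn1, Ccl22, Ccl5, Socs2, Il4i1 and Irf8 were lower and Cd86, Ifitm1, Il1b and Creb5 higher in the filled points of all 4 libraries. Fscn1 was part of the rule that chose the cells.

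A smaller set of members held at least 3 UMIs of Il12b, 5 of 84 cells (5.95%) in the combination, 19 of 108 cells (17.6%) with 2DG, 9 of 111 cells (8.11%) with aPDL1 and 14 of 70 cells (20%) in ctrl. Irf8 was higher in these cells than in the rest in all 4 libraries, at 2029 against 575 CPM in the combination, 1484 against 806 with 2DG, 1117 against 745 with aPDL1 and 1015 against 399.6 in ctrl. So were Bcl2l14, a protein of the Bcl-2 family, Ncoa7, Scin and Dnase1l3, an extracellular nuclease, while Ifitm1, Fabp5, Il1r2, Selenom and H2-Eb1 were lower. Ifitm1 was at 569 against 1871 CPM in the combination, 68.3 against 886 with 2DG, 121 against 749.5 with aPDL1 and 25.4 against 715 in ctrl. These cells were deeper, with medians of 11855 to 16284 UMIs against 8708 to 9826, which raises the chance to hold 3 UMIs of any gene.

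Members with at least 3 UMIs of Ccl17 numbered 19 of 84 cells (22.6%) in the combination, 51 of 108 cells (47.2%) with 2DG, 49 of 111 cells (44.1%) with aPDL1 and 41 of 70 cells (58.6%) in ctrl. Ccl22 was higher in them, at 1464 against 362 CPM in the combination, 2275 against 619.7 with 2DG, 2233 against 338 with aPDL1 and 1726 against 583 in ctrl. Mgl2, Sirpa and Irf4, which mark the type 2 subset, were also higher in all 4 libraries, Irf4 by little in the combination (58.7 against 55.9 CPM). Flt3, used above to pick type 2 cells, was at 367 against 324 CPM in the combination. It was lower in the cells with Ccl17 in the others, at 320 against 451 CPM with 2DG, 257 against 402 with aPDL1 and 152 against 363 in ctrl. Irf8, which type 1 cells need, was higher in them except in ctrl (542 against 694 CPM). Tbc1d4, Cd200, Socs2, Selenom and Epsti1 were lower in all 4 libraries. Cd200 was at 117 against 230.2 CPM in the combination, 175 against 281 with 2DG, 115 against 281 with aPDL1 and 149.8 against 464 in ctrl. Median depth was 9898 to 14080 UMIs in these cells and 7483 to 9081 in the rest. Ccl22 was thus lower in the cells with Il1r2 and higher in those with Ccl17, and Mgl2 was higher in both. Il1r2 itself was higher in the cells with Ccl17 in ctrl (874 against 450 CPM). It was lower in them in the other libraries, at 153 against 378 CPM with 2DG. How the splits by Il1r2 and by Ccl17 relate was not tested.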

How the data were processed

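The deposited values were UMI counts per gene and cell barcode in 10x matrices of 4 libraries, 1 per group, made with Cell Ranger 7.0.0 per the file headers; the submitters' processing notes name Cell Ranger 3.1.0 and the mm10 build. The counting of intronic reads is not stated there. Library totals ranged from 61859753 to 73885214 UMIs over 32285 genes.

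Cells were filtered and chosen as the report states, UMIs were summed over the members of each library, and CPM was computed over all their UMIs. Log2 ratios had 0.5 added to counts. With 1 library per group no test was possible, so exact Poisson and Clopper-Pearson 95% intervals are given, which cover counting error only. Doublets were kept, and an alternative removed the highest Scrublet scores at 0.8% per 1000 barcodes. The named genes were up to 10 per comparison and direction, ranked by the smaller ratio, and genes of the lists. Genes named because they passed in every alternative, and those that split the members, were chosen after their values were seen. The members and lists were chosen with earlier results of these data known. Python 3.11.15, numpy 2.4.6, pandas 2.3.3, scipy 1.17.1 and scanpy 1.11.5 were used. The code of the size rule was run on simulated Poisson counts with changes larger than the rule asks for. Those counts lacked the gathering of UMIs in single cells, so that run cannot gauge how reliable the calls are. Alternatives changed the doublet, marker, depth, mitochondrial, scaling and count settings.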

Additional observations from a re-analysis of the deposited data

How the results depend on the processing

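No paired analysis was possible because each group had 1 library. The share of members, as percent of kept cells, moved by more than its counting interval when Ccr7 and Fscn1 each had to be detected, to 0.527% in the combination, 1.10% with 2DG, 1.03% with aPDL1 and 0.627% in ctrl. It moved to 1.17% with 2DG, 1.09% with aPDL1 and 0.649% in ctrl when the rule was applied to 3000 UMIs per cell, and to 0.785% in the combination with at least 6 UMIs of Ccr7 and Fscn1. Other denominators gave 1.39% in ctrl of cells without neutrophils, and 28.7% in the combination, 32.4% with 2DG, 34.2% with aPDL1 and 33.6% in ctrl of dendritic cells.

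Counts of genes past 1.5-fold moved by more than 1.5 times as follows. A minimum of 10 UMIs in place of 50 gave 360 higher and 195 lower genes for 2DG, 198 and 259 for aPDL1, and 455 and 654 for the combination, since more genes entered. With both genes of the rule detected, 13 genes were higher for 2DG and 37 for aPDL1, and 68 for the combination. With the rule on 3000 UMIs, 25 were higher for 2DG, 40 lower for aPDL1, and 71 higher and 117 lower for the combination. Without the mixed members, an alternative chosen after the data were seen, 30 were higher and 33 lower for 2DG, of which 21 and 19 were among the main calls. These settings leave fewer cells; the cause beyond that was not tested.

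Without the cell richest in each gene, also chosen after the data were seen, the log2 ratio of 8 named genes changed sign: Bnc2 in 2DG over ctrl (-0.59), Col8a1 (-2.94), Pdpn (-2.42) and Acp5 (0.41) in the combination over aPDL1, and in the combination against the other 3 Kalrn (-1.06), Nexmif (0.74), S100a8 (0.74) and Mecom (0.74). Cyp7b1 came to -0.20 for aPDL1 over ctrl with at least 6 UMIs of Ccr7 and Fscn1, and Spp1 to 0.75 without cells holding macrophage or neutrophil UMIs. For the combination Spock1 came to 0.050 with the rule on 3000 UMIs, and S100a8 to 3.48 without Scrublet doublets and 1.09 with both genes of the rule detected. A named gene that fell under 50 UMIs in a setting was given no value there, a choice made after values were seen. It covers 270 pairs of gene and setting in 45 of the 54 named genes, and in 96 of those pairs, in 36 genes, the ratio had the opposite sign. Genes carried by few cells, the stromal and neutrophil ones above all, are therefore not stable, and depth limits what 87 to 130 cells per library can show.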

Other observations

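Genes that tell the 2 subsets of origin apart differed between libraries. Of 13 measured genes of type 1 origin, 10 were higher with 2DG than in ctrl, at a median log2 ratio of 0.66. Of 15 genes of type 2 origin 10 were lower, at a median of -0.59. Of all genes 58.1% were higher and 41.9% lower in this pair. Without the mixed members these medians were 0.75 and -0.67. For the combination over 2DG, with all members, they were -0.11 for type 1 genes (6 higher, 7 lower) and 0.63 for type 2 genes (13 higher, 2 lower). Of all genes 45.2% were higher in that pair. The 8 monocyte genes had medians of -1.98 for 2DG against ctrl and 2.22 for the combination over 2DG, -2.51 and 2.34 without the mixed members, and their part in these results was not tested. Wdfy4, which type 1 cells need for cross-presentation, went against the type 1 median of the combination over 2DG. It was at 307 CPM in the combination, 209.9 with 2DG, 172 with aPDL1 and 133 in ctrl. Ifi205, an interferon-inducible gene, was at 239.7 CPM in the combination, 88.2 with 2DG, 57.4 with aPDL1 and 43.6 in ctrl. Klf4, a transcription factor of type 2 cells, was at 167 CPM in the combination, 64.3 with 2DG, 102 with aPDL1 and 119 in ctrl.

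Hmgcs1 and Fdps, genes of cholesterol synthesis, were highest with 2DG alone. Hmgcs1, which makes HMG-CoA, was at 33.8 CPM in the combination, 96.4 with 2DG, 62.6 with aPDL1 and 29.4 in ctrl. Fdps, which makes farnesyl diphosphate, was at 38.0 CPM in the combination, 96.4 with 2DG, 44.9 with aPDL1 and 19.9 in ctrl. These 2 genes were picked after their values were seen; of 21 measured lipid and cholesterol genes 17 were lower in the combination than with 2DG and 11 higher with 2DG than in ctrl. Of 13 measured genes of microbial sensing, all were higher in the combination than with 2DG, at a median of 0.74 (0.99 without the mixed members). In the same pair 7 of the 8 monocyte genes were more than 1.5-fold higher, and their part in this result was not tested. Myd88, the adaptor of most Toll-like receptors, was at 48.6 CPM in the combination, 17.6 with 2DG, 35.3 with aPDL1 and 19.9 in ctrl.

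Cd1d1, which presents lipids to NKT cells, marked a further set of members, with 3 or more UMIs in 17 of 84 cells (20.2%) in the combination, 13 of 108 cells (12.0%) with 2DG, 15 of 111 cells (13.5%) with aPDL1 and 10 of 70 cells (14.3%) in ctrl without the mixed members. Ccl5 was higher in this set in all 4 libraries, at 3670 against 901 CPM in the combination, 2447 against 2194 with 2DG, 2007 against 1551 with aPDL1 and 3263 against 1389 in ctrl. Il15 was higher too, at 157 against 81.9 CPM in the combination, 168 against 134 with 2DG, 151 against 117 with aPDL1 and 331 against 124 in ctrl.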
